A study of Mus musculus with 6 samples.

Results

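The sodium-potassium pump (Na+/K+-ATPase) moves sodium out of a cell and potassium into it at the cost of ATP. Each pump pairs a catalytic subunit with a glycosylated beta subunit, which the complex needs to leave the endoplasmic reticulum and reach the plasma membrane. Small membrane proteins of the FXYD family, among them FXYD1 (phospholemman), bind the complex and tune its affinity and rate. In the choroid plexus (ChP) the pump is known for its place on the apical membrane, facing the cerebrospinal fluid (CSF), where its ion gradients drive the cotransporters of the same membrane.

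Here the genes of the beta subunits, Atp1b1, Atp1b2 and Atp1b3, and Fxyd1 were followed in ChP at E16.5 and in the adult. They were taken by gene symbol, and make up 4 of the 24354 gene names in the table. All 4 passed the filter on low values, as did 11601 genes in all (mean FPKM above 1 over the samples). FPKM counts fragments by transcript length and by the mapped total of the sample, so that genes of different length can be set side by side. The libraries came from translating ribosome affinity purification (TRAP), which isolates mRNA bound to ribosomes that carry a tagged L10a subunit. At both ages the mice carried FoxJ1:cre and the EGFP:L10a transgene, so that only cells with a history of activity of the Foxj1 promoter, a promoter of multiciliated cells, were tagged. There were 3 adult samples, aged 60 days by the labels, and 3 samples at embryonic day 16.5. The methods describe pools of 3 mice or 3 litters per sample and the series text speaks of 3 mice at each age, so it is not settled how many animals stand behind a replicate. Fewer tagged cells and less of an mRNA on the ribosomes of each cell cannot be told apart in such samples.

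The libraries differed in depth and make-up by age. The FPKM value of a single read in 1 kb lay between 0.112 and 0.328 in adult and between 0.0636 and 0.0780 in E16.5 samples. The gene Mir6236 took 32.7% to 51.7% of the summed FPKM in adult samples, and the most abundant gene of each E16.5 sample took 13.3% to 17.2%. Of the genes tested, 10.3% to 36.4% were listed at 0 in an adult sample, against 3.68% to 4.02% at E16.5. The 14 markers of ChP epithelium summed to between 39960 and 55305 FPKM in adult and between 3700 and 4045 FPKM in E16.5 samples. All 14 were tested, and 6 rose and 2 fell in limma, against 2.12% and 8.83% of all genes tested. The 6 include Ttr, whose call rests on a listed 0 at E16.5. The 2 that fell were Otx2 and Krt18 (limma adjusted p = 0.0251 and 0.0429). Without Ttr and Enpp2, the most abundant in adult ChP, the other 12 summed to 4152 to 5271 and to 3426 to 3764 FPKM. Ttr, the thyroid hormone carrier of the ChP, was at 20922 to 31302 FPKM in adult samples and listed at 0 in every E16.5 sample, a 0 that need not mean absence, since estimates that failed can be written as 0. Folr1 and Clic6, the markers of this epithelium with the highest mean at E16.5, averaged 926 and 770.2 FPKM there, against 603 and 671 FPKM in adult ChP. Neither passed the limma test (adjusted p = 0.131 and 0.532). Enpp2, among the 6 that rose against 2 that fell, averaged 273 FPKM at E16.5 and 16676 FPKM in adult ChP.

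Adult ChP held more mRNA of Atp1b1 and Atp1b3 on tagged ribosomes than E16.5 ChP, by 3.51-fold and 5.90-fold between the mean FPKM. No age difference passed the test for Atp1b2 or for Fxyd1, which had the highest mean level of the 4 genes at both ages. Over all genes tested, the adult samples were lower by a median of -0.86 on the log2(FPKM + 1) scale, the scale of every change given here (adult minus E16.5). In the limma comparison 246 genes (2.12%) rose and 1024 genes (8.83%) fell from E16.5 to adult at an adjusted p of 0.05. Of the 4 genes, 2 rose and none fell, and their median change was 1.16. The adult values all exceeded the E16.5 values in 7.39% of the genes tested and in 2 of the 4, and were all lower in 31.0% of the genes and in none of the 4. The balance of rising to falling genes depended on the scaling and on the samples and genes taken. Rising genes made up 19.4% of those called on the deposited FPKM, 34.7% after median-ratio scaling, 50.9% after quantile normalization and 3.59% with every sample rescaled to the same sum, while the median change moved to -0.56, -0.15 and -1.46. They made up 39.8% among genes above 0 in every sample, and 56.1%, 62.8% and 42.0% without E16.5 replicates 1, 2 and 3. Relative to that median, the change was 2.42 to 2.69 for Atp1b1, 1.07 to 1.42 for Atp1b2, 2.99 to 3.26 for Atp1b3 and -0.36 to -0.10 for Fxyd1 under all scalings tried.

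**Figure D1:**
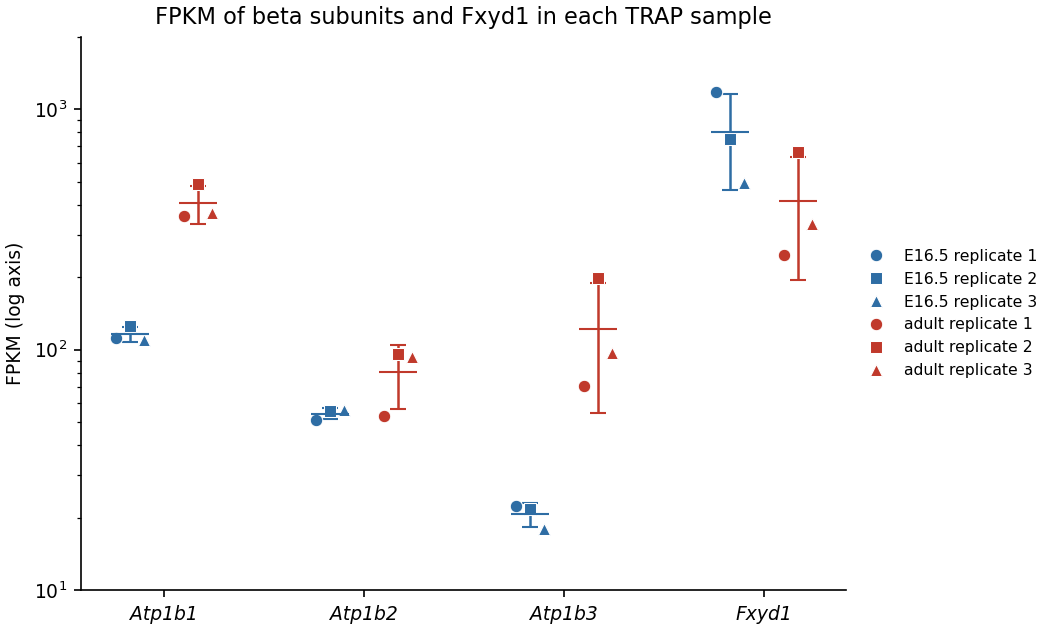
FPKM (log axis) of the beta subunit genes and Fxyd1 in the 3 E16.5 (blue) and 3 adult (red) samples. Symbols give replicates, horizontal lines the group mean and whiskers 1 SD. Adult and E16.5 points are separate for Atp1b1 and Atp1b3 and overlap for Atp1b2 and Fxyd1.

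Atp1b1 encodes the beta subunit found in most tissues, and in epithelia the usual partner of the catalytic subunit. Its FPKM was 361, 490.2 and 369 in adult replicates 1, 2 and 3, and 112, 126 and 109.9 in E16.5 replicates 1, 2 and 3. The ages did not overlap, and the lowest adult value lay well above the highest E16.5 value. The means were 407 ± 72.4 and 116 ± 8.56 FPKM (SD, n = 3 each). The change was 1.79 (SE 0.24, 95% interval 1.23 to 2.35, limma adjusted p = 0.00801), above that of 96.7% of the genes tested. By mean level Atp1b1 ranked 72 of the 11601 genes in adult ChP and 578 at E16.5. An exact permutation test of the 3 against 3 samples gave p = 0.1, the smallest it can give. The call did not outlast the loss of any E16.5 replicate. Without E16.5 replicates 1, 2 and 3 in turn, the change was 1.77, 1.85 and 1.75, with limma adjusted p of 0.0552, 0.0559 and 0.0542. Rescaling every sample to the same sum also ended the call, with a change of 0.96 (adjusted p = 0.0654).

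The gene lies on chromosome 1, at 164437109 to 164458355 of GRCm38, on the minus strand, and its longest transcript has 2580 bases in 6 exons (GENCODE). Its exons share 575 bases with those of Nme7 on the opposite strand, and 15.8% of its 50-base stretches also occur in Nme7. Whether reads were counted by strand for the FPKM is not given in the sources used here. Nme7 itself was at 4.61, 6.12 and 2.96e-07 FPKM in the adult samples and at 44.5, 36.0 and 43.6 FPKM in the E16.5 samples, opposite in direction to Atp1b1.

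Atp1b3, a further beta subunit gene with broad expression, showed the larger fold of the pair that rose. Its FPKM was 70.5, 199 and 97.2 in adult replicates 1, 2 and 3, and 22.3, 21.8 and 18.03 in E16.5 replicates 1, 2 and 3. Adult values spread by 2.82-fold and E16.5 values by 1.24-fold, without overlap between the ages. The means were 122 ± 67.6 and 20.7 ± 2.34 FPKM (SD, n = 3 each). The change was 2.37 (SE 0.43, 95% interval 1.37 to 3.38, limma adjusted p = 0.0201), above that of 98.5% of the genes tested. Atp1b3 ranked 350 of the 11601 genes by mean level in adult ChP and 3946 at E16.5. The exact permutation test again gave its smallest p, 0.1. As for Atp1b1, the call was lost without any E16.5 replicate. The change was then 2.43, 2.41 and 2.28 without replicates 1, 2 and 3, with limma adjusted p of 0.0794, 0.0796 and 0.0761. It was also lost when genes of low level were tested too (2.37, adjusted p = 0.0866), and with every sample rescaled to the same sum (1.57, adjusted p = 0.0539). Atp1b3 lies on chromosome 9, at 96332655 to 96364442 on the minus strand, with a longest transcript of 1994 bases in 7 exons. Of its 50-base stretches, 9.71% also occur in Gm1848, which is not among the gene names of the table.

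The promoter windows of the genes that rose are shown because both changed in the same direction. Windows from RefSeq (GRCm38.p6, 250 bases before to 50 after the start) matched 3 of the 4 genes, namely Atp1b1, Atp1b3 and Fxyd1. In the sequences, read 5′ to 3′ in the direction of the gene, capitals mark CCAAT and GGGCGG on either strand. The first is chr1:164458306-164458605 and the second, the more distal of the windows of Atp1b3, is chr9:96364382-96364681, both on the minus strand.
Atp1b1: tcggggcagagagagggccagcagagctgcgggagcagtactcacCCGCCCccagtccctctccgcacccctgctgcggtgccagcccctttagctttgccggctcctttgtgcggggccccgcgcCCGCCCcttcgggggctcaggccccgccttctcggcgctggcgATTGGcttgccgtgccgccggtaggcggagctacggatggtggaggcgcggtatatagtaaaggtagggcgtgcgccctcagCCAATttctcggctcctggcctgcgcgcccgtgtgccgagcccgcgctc
Atp1b3: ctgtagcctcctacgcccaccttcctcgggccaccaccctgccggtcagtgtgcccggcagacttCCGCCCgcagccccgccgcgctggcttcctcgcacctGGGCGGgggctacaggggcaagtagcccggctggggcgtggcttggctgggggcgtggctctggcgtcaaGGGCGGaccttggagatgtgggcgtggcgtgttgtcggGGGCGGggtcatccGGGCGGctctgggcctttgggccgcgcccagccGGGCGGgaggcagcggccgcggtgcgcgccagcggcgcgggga
The windows share a high GC content, 71% for Atp1b1 and 76% for Atp1b3, against a median of 52.7% over 32851 windows of the same length. They hold 31 and 34 CG dinucleotides, against a median of 7. The Atp1b1 window has GGGCGG at 205 and 124 bases before the start, and CCAAT at 81 bases before it and at the start. The Atp1b3 window has GGGCGG 6 times, from 185 bases before to 7 bases after the start, and no CCAAT. Of all windows, 35.7% hold GGGCGG and 37.4% hold CCAAT. The second Atp1b3 window, at chr9:96363666-96363965, has a GC content of 74.7% and neither motif. The Fxyd1 window, at chr7:31054804-31055103, differs in composition, with a GC content of 58.7% and 6 CG dinucleotides. It holds TATAAA, found in 13.6% of windows, on the reverse strand at the start, and neither GGGCGG nor CCAAT. The Fxyd1 window lies inside the gene as GENCODE places it. No GENCODE transcript starts with the last 50 bases of this window or of either Atp1b3 window, while 1 does for Atp1b1. Which starts are used in ChP was not tested. Among the other letters searched on both strands, CANNTG occurs in both windows of Atp1b3 (72.3% of all windows), as does TGACG (20.8%), while the Atp1b1 and Fxyd1 windows hold neither. TGTTT, present in 50.5% of all windows, is in none of the 4 windows. GTTGCCAT, searched after the windows were seen, is in the Fxyd1 window at 52 bases before the start and in 1.35% of all windows. In the first Atp1b3 window CANNTG shares its last base with a GGGCGG, and no other matches overlap. A match of letters is no measure of binding.

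Atp1b2 encodes the beta subunit also known as the adhesion molecule on glia, and is known from astrocytes and neurons. Its FPKM was 52.9, 95.8 and 93.6 in adult replicates 1, 2 and 3, and 50.8, 55.6 and 56.0 in E16.5 replicates 1, 2 and 3. Adult replicates 2 and 3 lay above every E16.5 sample, and adult replicate 1 lay among them. The means were 80.7 ± 24.2 and 54.1 ± 2.86 FPKM (SD, n = 3 each). The change of 0.52 (SE 0.33, 95% interval -0.26 to 1.30) did not pass the limma test (adjusted p = 0.317), and its sign turned to -0.30 (adjusted p = 0.593) with every sample rescaled to the same sum. The exact permutation test gave p = 0.3. The interval thus runs from a fall to a rise. Atp1b2 lies on chromosome 11, at 69599736 to 69605942 on the minus strand, with a longest transcript of 2842 bases in 7 exons, none of whose 50-base stretches occurs in other genes.

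Markers of the cells best known for Atp1b2 were low in adult samples. The summed glial markers exceeded Atp1b2 in each E16.5 sample, but largely through Gja1. The 10 markers of astrocytes and radial glia summed to 0 to 21.8 FPKM in adult and to 58.3 to 75.2 FPKM in E16.5 samples, with Gjb6 at 0 in every sample. Gja1 made up most of the E16.5 sums, at 49.4, 66.0 and 44.5 FPKM in replicates 1, 2 and 3. No other marker of the list was above 7.60 FPKM in an E16.5 sample. Of the 5 tested, Gja1, the gap junction gene, fell (limma adjusted p = 0.0149) and none rose, against 8.83% and 2.12% of all genes tested. The 9 markers of neurons and neural progenitors summed to 0 to 3.24 FPKM in adult and to 2.30 to 82.4 FPKM in E16.5 samples, with Neurod6 and Eomes at 0 throughout. E16.5 replicate 1 stood apart there, since replicates 2 and 3 summed to 4.47 and 2.30 FPKM. The glial sum was higher at E16.5 and the mean of Atp1b2 higher in adult ChP. The part of these cells in its level was not tested.

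Fxyd1 encodes phospholemman, the FXYD protein through which protein kinases act on the pump in heart and muscle. Its FPKM was 248, 661 and 333 in adult replicates 1, 2 and 3, and 1177, 751 and 494 in E16.5 replicates 1, 2 and 3. Adult replicate 2 lay above E16.5 replicate 3, so that the ages overlapped. The spread within an age was 2.67-fold in adult and 2.38-fold in E16.5 samples, wider at E16.5 than for any beta subunit. The means were 414 ± 218 and 807 ± 345 FPKM (SD, n = 3 each), 1.95-fold higher at E16.5. The change of -0.997 (SE 0.45, 95% interval -2.04 to 0.04) did not pass the limma test (adjusted p = 0.174) and lay near the median of all genes, above 45.7% of them. With every sample rescaled to the same sum it passed, at -1.83 (adjusted p = 0.0299). The exact permutation test gave p = 0.2. By mean level Fxyd1 ranked 44 of the 11601 genes at E16.5 and 70 in adult ChP. The gene lies on chromosome 7, at 31051678 to 31057199 on the minus strand. Its 12 coding transcripts have 338 to 620 bases, so that each is shorter than the longest transcript of any beta subunit, and none of its 50-base stretches occurs in other genes.

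Of the further marker lists, the sums of some were higher at E16.5, as was the mean of Fxyd1, and those of others overlapped between the ages. The 8 markers of motile cilia and ependyma summed to 224 to 366 FPKM in adult and to 1177 to 1668 FPKM in E16.5 samples, and 3 of the 5 tested fell, against 8.83% of all genes tested. Foxj1, whose promoter drives the Cre, was among these, with mean FPKM of 48.7 in adult ChP and 187 at E16.5 (limma adjusted p = 0.0127). Since that promoter sets the tag, this list can mark the tagged cells themselves. The 8 markers of mesenchyme and fibroblasts summed to 13.3 to 21.9 and to 60.7 to 70.3 FPKM, with none at 0 in every sample and 1 of the 6 tested, Pdgfra, falling (8.83% of all genes tested). Red blood cell markers, 6 of the list of 7 in the table, summed to 0 to 6.49 and to 54.1 to 324 FPKM, with 2 of the 3 tested falling (8.83% of all genes tested). In 4 further lists no tested gene was called and the sums overlapped. Oligodendrocyte markers summed to 1.05 to 73.0 FPKM in adult and to 7.92 to 18.6 FPKM in E16.5 samples, with the highest sum in adult replicate 3. Endothelial markers summed to 0.489 to 19.0 and to 12.7 to 40.8 FPKM. Those of smooth muscle and pericytes summed to 4.85 to 14.8 and to 7.55 to 10.99 FPKM, with Tagln and Kcnj8 at 0 throughout, and those of macrophages to 0.0695 to 6.82 and to 0.584 to 8.48 FPKM, with C1qc and Cd68 at 0 throughout. The part of the cells marked by these lists in the level of Fxyd1 was not tested.

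**Figure D2:**
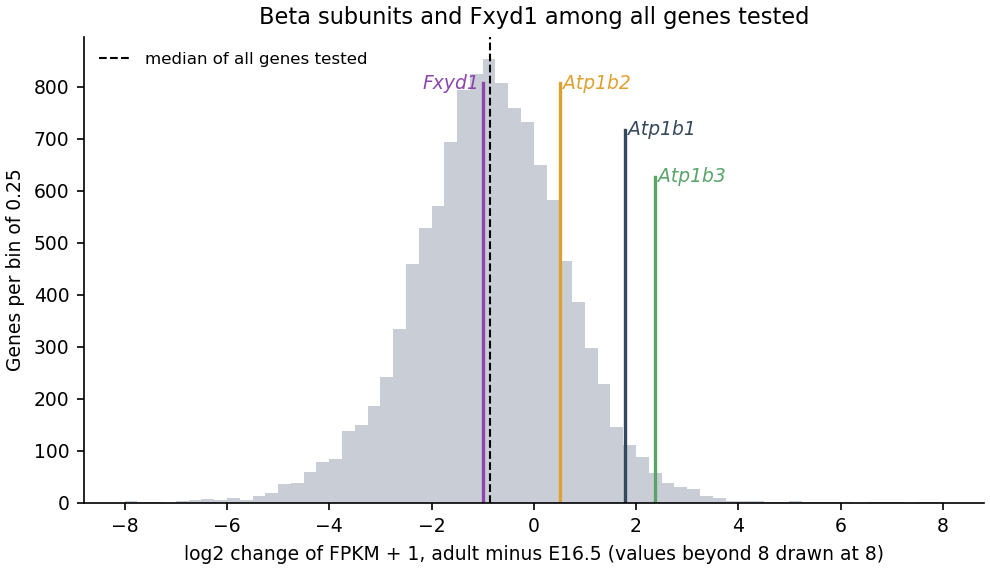
Number of genes (bins of 0.25) by log2 change of FPKM + 1, adult minus E16.5, over the 11601 genes tested. Coloured lines mark the beta subunit genes and Fxyd1, and the dashed line marks the median of -0.86. Atp1b1 and Atp1b3 lie in the right tail and Fxyd1 lies close to the median.

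The order of the 4 genes changed with age. At E16.5 every sample had Fxyd1 highest, then Atp1b1, Atp1b2 and Atp1b3, with no overlap between neighbours across the samples. In adult ChP, Fxyd1 and Atp1b1 did not differ beyond their spread, since Fxyd1 was the higher in replicate 2 and the lower in replicates 1 and 3. Atp1b3 was above Atp1b2 in each of the 3 adult samples, although their ranges over samples overlapped. All 4 genes had their highest adult value in replicate 2, which was also the adult library with the lowest share of Mir6236 (32.7%, against 51.0% and 51.7%). The part of that library difference in the levels was not tested.

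Ratios between genes of one sample do not depend on how samples are scaled to each other. All 6 pairs were compared by exact permutation tests of the log2 ratio of FPKM, with p adjusted over the 6 pairs, and no pair could fall below an adjusted p of 0.1. The ratio of Atp1b3 to Fxyd1 moved furthest. Its log2 value was -1.81, -1.73 and -1.77 in adult replicates 1, 2 and 3, and -5.72, -5.11 and -4.77 in E16.5 replicates 1, 2 and 3. The ratio was thus 10.7-fold higher in adult ChP (adjusted exact p = 0.12), and its SD on the log2 scale was 0.040 in adult and 0.48 in E16.5 samples. The ratio of Atp1b1 to Fxyd1 was 6.96-fold higher in adult ChP and that of Atp1b2 to Fxyd1 2.88-fold higher, both without overlap between the ages (adjusted exact p = 0.12 each). Between beta subunits, Atp1b1 gained on Atp1b2 by 2.41-fold, and the ratio of Atp1b2 to Atp1b3 was 3.73-fold higher at E16.5 (adjusted exact p = 0.12 each). The log2 ratio of Atp1b1 to Atp1b3 was 2.36, 1.30 and 1.92 in adult and 2.33, 2.53 and 2.61 in E16.5 replicates, with overlap (difference -0.63, adjusted exact p = 0.2).

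The make-up of the beta subunit mRNA moved away from Atp1b2. Atp1b2 was 10.9%, 12.2% and 16.7% of the summed beta subunit FPKM in adult replicates 1, 2 and 3, and 27.5%, 27.4% and 30.4% in E16.5 replicates 1, 2 and 3. Every adult share lay below every E16.5 share, with means of 13.3% ± 3.04 and 28.4% ± 1.73 (SD, n = 3 each). Atp1b3 was 14.6%, 25.3% and 17.4% in adult and 12.05%, 10.7% and 9.80% in E16.5 replicates. These did not overlap either, with means of 19.1% ± 5.58 and 10.9% ± 1.13, and the difference of 8.22 percentage points fell to 5.11 without adult replicate 2. Atp1b1 held the majority in every sample, at 74.5%, 62.5% and 65.9% in adult and 60.5%, 61.9% and 59.8% in E16.5 replicates. Its means were 67.6% ± 6.21 and 60.7% ± 1.07, and the difference of 6.92 percentage points rested largely on adult replicate 1, without which it was 3.47. For each share the exact permutation test gave p = 0.1, the smallest possible, and 0.1 after adjustment over the 3 shares.

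**Figure D3:**
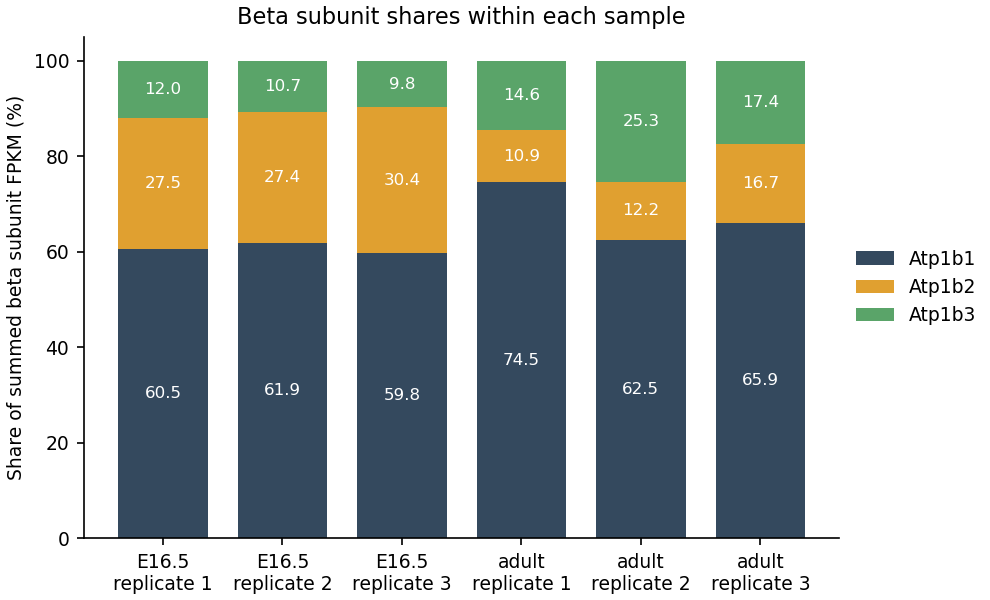
Share (%) of each beta subunit gene in the summed FPKM of Atp1b1, Atp1b2 and Atp1b3, one bar per sample. The Atp1b2 share is 27.4% to 30.4% in the E16.5 bars and 10.9% to 16.7% in the adult bars, where the Atp1b3 share is larger.

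The summed FPKM of the beta subunits was 484, 785 and 559.7 in adult and 185, 203 and 184 in E16.5 replicates. The means of 609.6 ± 156 and 191 ± 10.7 FPKM (SD, n = 3 each) differed by 3.20-fold, without overlap (exact permutation p = 0.1, the smallest possible). Fxyd1 stood at 0.512, 0.843 and 0.595 of that sum in adult replicates, and at 6.35, 3.70 and 2.68 times the sum in E16.5 replicates. Every adult sample thus had less Fxyd1 than beta subunit FPKM, and every E16.5 sample more (means 0.650 ± 0.172 and 4.24 ± 1.90, exact permutation p = 0.1).

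Counting error was smaller than the spread between adult samples. Taking the size of a single read from low values of each library, Atp1b1 rested on about 2674 to 10385 reads per sample, Atp1b2 on 558 to 2310, Atp1b3 on 477 to 3172 and Fxyd1 on 416 to 6335. The largest counting SD was 1.93%, 4.23%, 4.58% and 4.90% of the value. These are estimates that take the longest transcript as the length, and they cover counting error only.

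Across processing choices Atp1b1 and Atp1b3 stayed higher in adult ChP in each of the 16 alternatives tried. Atp1b1 passed the limma test in 12 of them and Atp1b3 in 11. Fxyd1 stayed lower in adult ChP in all 16 and passed in 1, and Atp1b2 was higher in 15 and passed in none.

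**Figure D4:**
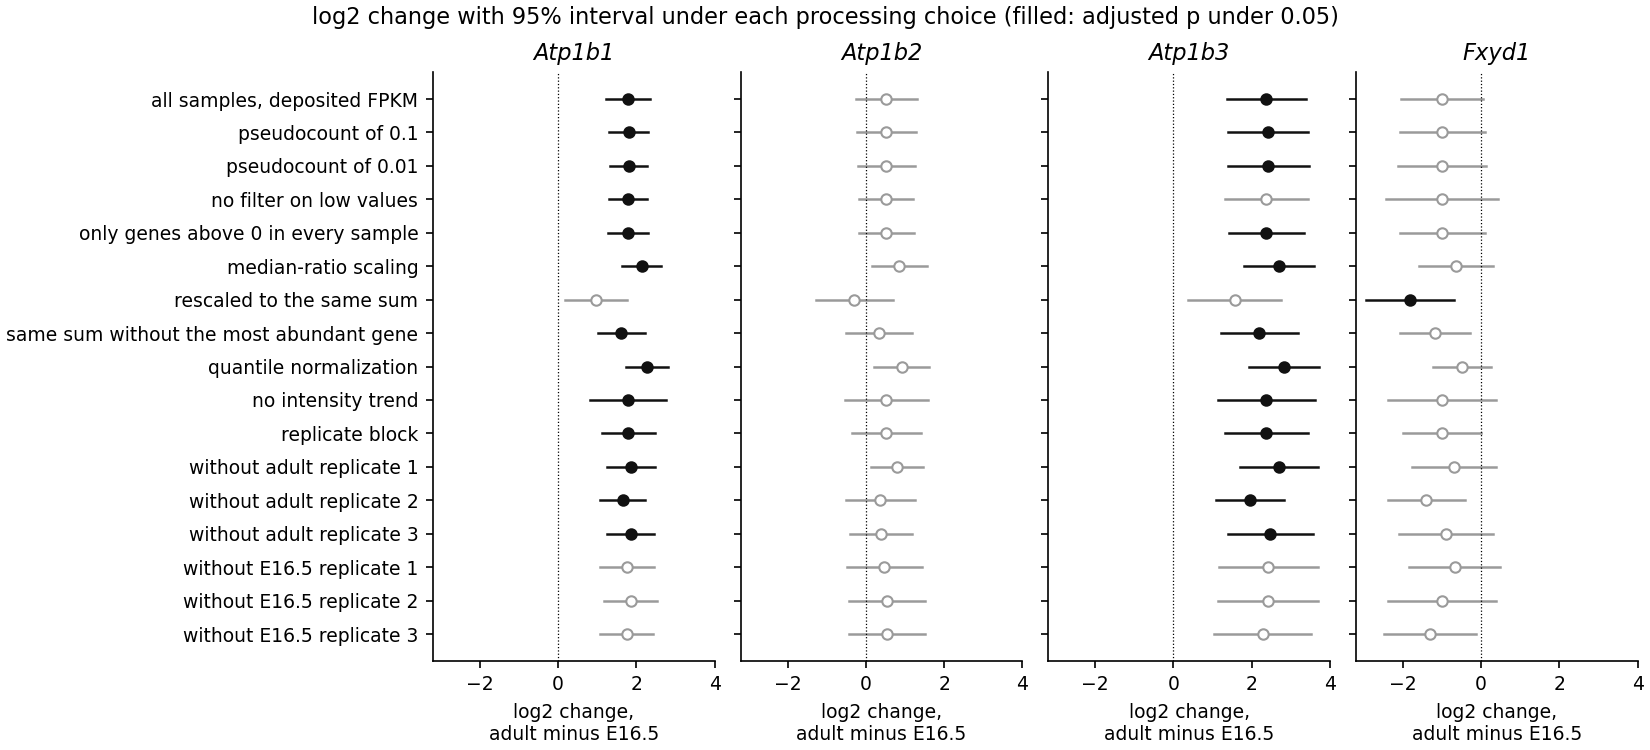
log2 change, adult minus E16.5, with its 95% interval for each gene under the deposited FPKM (top line) and 16 alternatives. Filled black points passed an adjusted p of 0.05 in limma. The points of Atp1b1 and Atp1b3 lie right of 0 on every line and those of Fxyd1 left of 0, while the point of Atp1b2 lies left of 0 with samples rescaled to the same sum and right of it on the other lines.

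Genes with the most similar profile over the 6 samples were found by the Euclidean distance between values of log2(FPKM + 1), after each gene's mean was subtracted. This is a description, since much of each profile is the difference between the ages. Nearest to Atp1b1 were Scd2, Ccpg1, Cyld, Atp2c1 and Ppp1r1b, at distances of 0.26 to 0.40. Scd2, a fatty acid desaturase, had mean FPKM of 245 in adult ChP and 75.6 at E16.5 (Pearson's r of 0.995 with Atp1b1 over the 6 samples). Nearest to Atp1b3 were Grina, Abcc4, Ptk2b, Nfix and C1qtnf5, at 0.65 to 0.82, farther than the genes nearest to Atp1b1. Atp1b2 had Luzp1, Ptpn11, Spryd3, Lbr and Smim1 nearest, at 0.15 to 0.27. For Fxyd1 they were Cops7a, Rassf5, Taf5, Ddrgk1 and Rab5a, at 0.42 to 0.50, of which Rassf5 and Taf5 averaged under 2 FPKM at both ages. Among the 4 genes themselves, the closest pair was Atp1b1 and Atp1b3, at 1.05.

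Related pump genes were listed at or near 0 in most samples. Atp1b4, Atp4a, Atp4b and Atp12a, a beta-like gene and the hydrogen-potassium pump genes, were at 0 in all 6 samples. Of the 6 other FXYD genes, Fxyd3 and Fxyd4 were at 0 in every sample, and only Fxyd2 and Fxyd5 reached the level for testing. Neither passed, and each rested on 1 library. Fxyd2, the gamma subunit of the kidney pump, was at 10.98 FPKM in E16.5 replicate 1 and at 0 elsewhere. Fxyd5 was at 21.0 FPKM in adult replicate 2, and at most at 0.307 FPKM in any other sample. Fxyd6 and Fxyd7 were seen in E16.5 replicate 2 alone, at 0.755 and 5.72 FPKM. Fxyd1 had the highest listed FPKM of the FXYD genes in each of the 6 samples, and a listed 0 of the others need not mean absence.

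Genes that act on the pump were described from a list of 16 interactors, chaperones and kinases. Of these, 15 were in the table and 12 were tested, and 4 rose and 2 fell, with a median change of 0.16. Of all genes tested 2.12% rose and 8.83% fell, with a median of -0.86. Kl, the gene of Klotho, which is known for its part in bringing the pump to the cell surface in this epithelium, rose from 7.36 ± 1.48 to 554 ± 66.0 FPKM (SD, n = 3 each, limma adjusted p = 0.000166). It is among the epithelium markers too. Ppp1r1b (DARPP-32), an inhibitor of protein phosphatase 1, rose by 1.83 (adjusted p = 0.0111). The chaperones of the endoplasmic reticulum Canx and Hspa5 rose by 1.51 (adjusted p = 0.0201) and 1.03 (adjusted p = 0.0295). Ppp1ca, a catalytic subunit of protein phosphatase 1, fell by 1.63 (adjusted p = 0.0326). Nkain4, a membrane protein that interacts with the pump, was at 54.1, 45.2 and 14.1 FPKM in E16.5 replicates and listed at 0 in every adult sample (adjusted p = 0.00865).

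The cytoskeletal anchor of the pump showed no call. Of 8 ankyrin, spectrin and adducin genes 7 were tested, and none passed in either direction. Over all genes tested 2.12% rose and 8.83% fell, and 7 genes are too few to tell no call from those shares. The median change of these 7 genes was -0.60. In Ank2, Ank3 and Add1, named after their values were seen, every adult sample lay below every E16.5 sample, which held for 31.0% of all genes tested.

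Several transporters and channels from a list for the apical and basolateral membranes rose. Of 12 sodium and potassium partners 10 were tested, 5 rose (2.12% of all genes tested did) and none fell, with a median change of 1.72. Slc12a2 (NKCC1), the cotransporter of sodium, potassium and chloride on the apical membrane, was at 216, 203 and 165 FPKM in adult and 35.0, 32.1 and 44.6 FPKM in E16.5 replicates (change 2.36, SE 0.28, adjusted p = 0.00558). Its groups did not overlap, as for Atp1b1 and Atp1b3. Slc4a10, a sodium-dependent bicarbonate transporter, rose by 3.43 (adjusted p = 0.00165). The potassium channels Kcnj13 (Kir7.1) and Kcnk1 (TWIK-1) rose by 2.95 (adjusted p = 0.00387) and 2.31 (adjusted p = 0.0137). Slc12a4, a potassium-chloride cotransporter, rose by 1.66 (adjusted p = 0.0238), and is named beyond the first 4 called genes after its value was seen. Kcna3 was at 0 in every sample and Kcna1 at most at 0.327 FPKM.

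**Figure D5:**
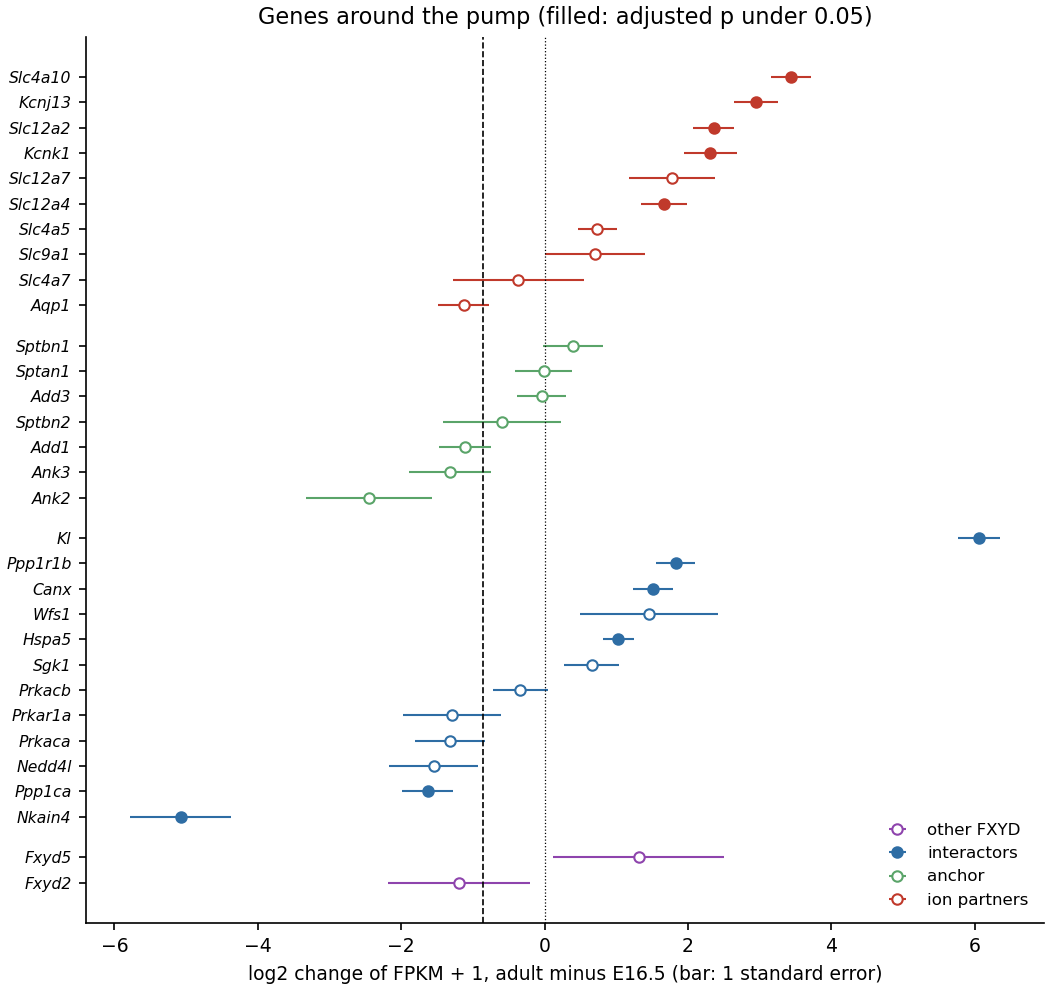
log2 change of FPKM + 1, adult minus E16.5, with 1 SE for the tested genes of the lists around the pump. Filled points passed an adjusted p of 0.05 in limma, and the dashed line marks the median of all genes tested. Filled points of the transporters and channels (red) all lie right of 0, no anchor gene (green) is filled, and the place of Nkain4, listed at 0 in adult samples, depends on the pseudocount.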

How the data were processed

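By the methods, the authors sequenced TRAP mRNA of ChP as 50-base single-end reads, aligned them to mm10 with STAR (2.4.0 in the submitters' processing notes) and calculated gene FPKM with Cuffquant of Cufflinks. The deposited FPKM were used unchanged; the annotation behind them and any batches are not given in the sources used here.

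Age in the labels set the groups. Genes with a mean FPKM above 1 (11601 of 24354) were tested on log2(FPKM + 1) using limma 3.58.1 (R 4.3.3). The fit had an intensity trend but no covariate, and Benjamini-Hochberg adjustment ran over all genes tested. A pseudocount of 1 understates the change of low genes. Single values and ratios were compared by two-sided exact permutation tests (scipy 1.17.1). A trial on simulated data drew normal values without listed zeros or depth differences, unlike these libraries, and its outcome is not used here. The number of animals behind a replicate is not settled, and p measures only the spread between these samples.

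The genes, lists and rules were chosen with earlier results of these data known. The genes named are the 4 genes, the called genes of each list (up to 4 per direction), the 5 nearest profiles, and markers by level or at 0, of which not all are named. Predicted genes were left out of the nearest profiles. The catalytic alpha subunits are not reported here. Coordinates are from GENCODE M21 (GRCm38), where 95.6% of gene names matched, and promoter sequences from RefSeq (GRCm38.p6). Depth was estimated from the steps of low FPKM values, of which 72.9% to 88.9% lay within 0.1 of a whole read (20% by chance).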

Additional observations from a re-analysis of the deposited data

How the results depend on the processing

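Rescaling every sample to the same sum moved Atp1b1 to 0.96, Atp1b3 to 1.57, Fxyd1 to -1.83 (now past the threshold) and Atp1b2 to -0.30 (reversed). With the most abundant gene of each sample left out of that sum, Atp1b1 was at 1.61 (limma adjusted p = 0.0112) and Atp1b3 at 2.19 (0.0193), both past the threshold. Fxyd1 was then at -1.18 (0.0792) and Atp1b2 at 0.34 (0.531), neither past it. The rescaling itself shifts the median of all genes, and the cause of the moves was not tested. Without a filter on low values Atp1b3 stayed at 2.37 but lost its call, with 24354 genes tested in place of 11601. At an adjusted p of 0.01 the change of Atp1b3, 2.37, was no longer past the threshold.

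Leaving out 1 replicate gave 1.65 to 1.87 for Atp1b1 and 1.95 to 2.69 for Atp1b3, the calls being lost without any E16.5 replicate and held without any adult replicate. The cause was not tested. It gave 0.37 to 0.80 for Atp1b2 and -1.40 to -0.68 for Fxyd1, never past the threshold. The share differences in percentage points ranged over 3.47 to 9.50 for Atp1b1, -16.9 to -14.0 for Atp1b2 and 5.11 to 10.5 for Atp1b3.

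Over all genes, 27 to 357 rose and 16 to 1704 fell when 1 replicate was left out (the fewest without E16.5 replicate 2, the most rising without adult replicate 3 and falling without adult replicate 2). Without the filter 102 rose and 203 fell, and at the threshold of 0.01 the counts were 56 and 132. Rescaling to the same sum gave 119 and 3200 and quantile normalization 466 and 449. Median-ratio scaling left 658 falling, genes above 0 in every sample 373 falling, and a fit with no intensity trend 158 rising. The cause of these shifts was not tested.

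Replicate numbers are shared between the ages, but same-numbered samples did not deviate together (r of 0.00089, 0.044 and 0.015 across genes, against -0.029 to 0.013 for other pairs). With the replicate block, 112 genes rose and 452 fell, Atp1b1 had an adjusted p of 0.0265 and Atp1b3 of 0.0367, and neither Atp1b2 nor Fxyd1 passed. Each sample correlated best with its own number except replicate 1 of both ages. No fit at matched depth was made.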
